A study of Mus musculus with 8 samples.

Results

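The peaks of CHD4 and of H3K4me3 in proliferating iMOPs were set against each other: how often CHD4 was listed at a promoter with H3K4me3 depending on the width and rank of the H3K4me3 peak, how far apart the positions of highest signal lay, and which kinds of genes carried each combination. The members were all peaks of these 2 lists, 4919 for CHD4 and 7472 for H3K4me3, together 12391 of the 26724 peaks in the 6 lists of the study. The cells were wild-type mouse iMOPs, an immortalized line of multipotent otic progenitors, kept proliferating in 20 ng/ml bFGF. iMOP-derived neurons, the other state of the same line, were grown without bFGF and with 1 µM K03861. Each list came from CUT&Tag on 500000 cells, in which an antibody guides a protein A-Tn5 transposase to cut the DNA beside its target. There was 1 library for each antibody and state, so no value has a replicate check and no test was run. The exact (Clopper-Pearson) 95% intervals given with shares cover counting error only, and peaks and genes are not replicates. IgG libraries were not used here, and library depth is unknown.

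CHD4 is the ATPase of NuRD, a complex that moves nucleosomes and removes acetyl groups from histones. H3K4me3 is laid down around transcription starts by the SET1 and MLL methyltransferase complexes and marks promoters of active and poised genes. Wide H3K4me3 peaks are known from genes of cell identity and from very active genes, and NuRD has been described at active promoters and enhancers as well as at repressed ones.

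Upstream sequences are shown for 6 genes, the first pair by signal or width in each of the 3 combinations: CHD4 with H3K4me3, H3K4me3 alone and CHD4 alone. Each line holds the 250 bases before a transcription start, 5′ to 3′ along the gene, from RefSeq on GRCm38.p6 (the build called mm10). Capitals mark CpG dinucleotides, the pairs of bases that are frequent in CpG island promoters. Ddr1, a collagen receptor kinase, is at chr17:35704140-35704389 on the minus strand and holds 5 CpG. Dll1, a Notch ligand, is at chr17:15376933-15377182 on the minus strand and holds 13. Pik3r2, a regulatory subunit of PI3 kinase, is at chr8:70776713-70776962 on the minus strand and holds 29. Med22, a Mediator subunit, is at chr2:26910643-26910892 on the minus strand and holds 28. Gpr153, an orphan G protein-coupled receptor, is at chr4:152273862-152274111 on the plus strand and holds 26. H2bc14, a histone H2B gene, is at chr13:21721794-21722043 on the plus strand and holds 7.
Ddr1, CHD4 with H3K4me3: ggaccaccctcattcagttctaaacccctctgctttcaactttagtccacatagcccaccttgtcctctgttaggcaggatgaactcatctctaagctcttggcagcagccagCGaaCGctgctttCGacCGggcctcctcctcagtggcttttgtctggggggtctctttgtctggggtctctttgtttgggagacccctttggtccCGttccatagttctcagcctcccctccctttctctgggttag
Dll1, CHD4 with H3K4me3: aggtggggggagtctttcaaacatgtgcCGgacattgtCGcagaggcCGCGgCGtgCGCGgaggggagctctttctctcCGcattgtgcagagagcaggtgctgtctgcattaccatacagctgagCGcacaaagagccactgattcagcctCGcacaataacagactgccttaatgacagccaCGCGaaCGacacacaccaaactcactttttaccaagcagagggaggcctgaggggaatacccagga
Pik3r2, H3K4me3 alone: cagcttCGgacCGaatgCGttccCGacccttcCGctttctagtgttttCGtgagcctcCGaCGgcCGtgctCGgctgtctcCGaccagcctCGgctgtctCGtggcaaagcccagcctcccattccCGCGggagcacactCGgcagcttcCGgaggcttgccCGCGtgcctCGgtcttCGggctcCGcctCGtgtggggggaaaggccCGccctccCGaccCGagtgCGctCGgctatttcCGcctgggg
Med22, H3K4me3 alone: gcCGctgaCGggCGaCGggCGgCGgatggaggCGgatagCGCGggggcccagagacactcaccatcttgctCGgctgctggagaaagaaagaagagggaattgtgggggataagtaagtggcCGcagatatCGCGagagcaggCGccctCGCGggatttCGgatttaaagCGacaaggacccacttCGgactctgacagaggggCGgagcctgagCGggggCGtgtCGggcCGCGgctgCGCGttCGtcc
Gpr153, CHD4 alone: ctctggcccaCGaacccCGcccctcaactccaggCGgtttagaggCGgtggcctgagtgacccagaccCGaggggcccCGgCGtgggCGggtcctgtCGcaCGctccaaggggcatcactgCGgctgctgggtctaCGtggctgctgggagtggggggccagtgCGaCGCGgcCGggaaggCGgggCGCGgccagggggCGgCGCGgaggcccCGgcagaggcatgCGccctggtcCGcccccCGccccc
H2bc14, CHD4 alone: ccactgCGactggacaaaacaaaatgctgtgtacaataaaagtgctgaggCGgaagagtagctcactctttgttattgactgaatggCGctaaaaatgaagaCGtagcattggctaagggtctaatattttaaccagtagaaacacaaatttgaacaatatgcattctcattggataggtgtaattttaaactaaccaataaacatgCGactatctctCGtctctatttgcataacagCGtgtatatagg

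The sequences with H3K4me3 alone held the most CpG of these 6 examples. The upstream region of Ddr1 held few CpG under a strong peak of each antibody, while that of Gpr153 held many under CHD4 without H3K4me3. Where a gene had several starts, as Ddr1, Dll1 and Gpr153 did, the start nearest the position of highest signal was printed. That choice favours short distances. The position of highest signal lay close to the start at H2bc14 (181 bp, CHD4) and Ddr1 (164 bp, H3K4me3). At Ddr1 the CHD4 position of highest signal lay 5800 bp from that of H3K4me3. Distances to the start were 15737 bp at Pik3r2 and 7617 bp at Med22 for H3K4me3, and 6337 bp at Gpr153 for CHD4. The widest peaks therefore cover more than the promoter printed for them.

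Both lists were dominated by peaks of a few kb, but CHD4 peaks were fewer. CHD4 covered 19.4 Mb with a median width of 3400 bp (quartiles 2500 and 4625), and H3K4me3 covered 31.3 Mb with a median of 3700 bp (3000 and 4750). Genes were placed by their annotated starts, and 4395 of 21887 protein-coding genes without a start in the promoter table were placed by both annotated ends. CHD4 lay within 1 kb of a start at 2351 genes (10.7% of all protein-coding genes) and H3K4me3 at 8200 genes (37.5%). The combinations were unequal in size: 2104 genes had CHD4 and H3K4me3 (9.61%), 6096 had H3K4me3 alone, 247 had CHD4 alone and 13440 had neither. CHD4 was thus listed at 25.7% of genes with H3K4me3 and at 1.8% of genes without it. At 2060 of the 2104 genes with both, the strongest peaks of each antibody at the start overlapped.

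The share of promoter H3K4me3 peaks with CHD4 rose with each step in width. Over all 6961 H3K4me3 peaks within 1 kb of a start, 1800 shared 1 bp or more with CHD4 (25.9%). Divided into 5 groups of equal number by width, the share was 8.26% (interval 6.86 to 9.83) in the narrowest peaks, up to 2850 bp. It was 14.4% in the next group, 19.5% in the middle group and 32.1% in the fourth, and it reached 55.0% (52.3 to 57.6) in peaks of 5000 bp or more. The intervals of neighbouring groups did not touch. In the 696 widest peaks, from 6150 bp on, CHD4 was present at 67.2% (63.6 to 70.7). The widest group holds, for example, Cdkn1b (16950 bp), an inhibitor of cyclin-dependent kinases, and the second group Mcm6 (3300 bp), a subunit of the replicative helicase, both with CHD4.

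**Figure D1:**
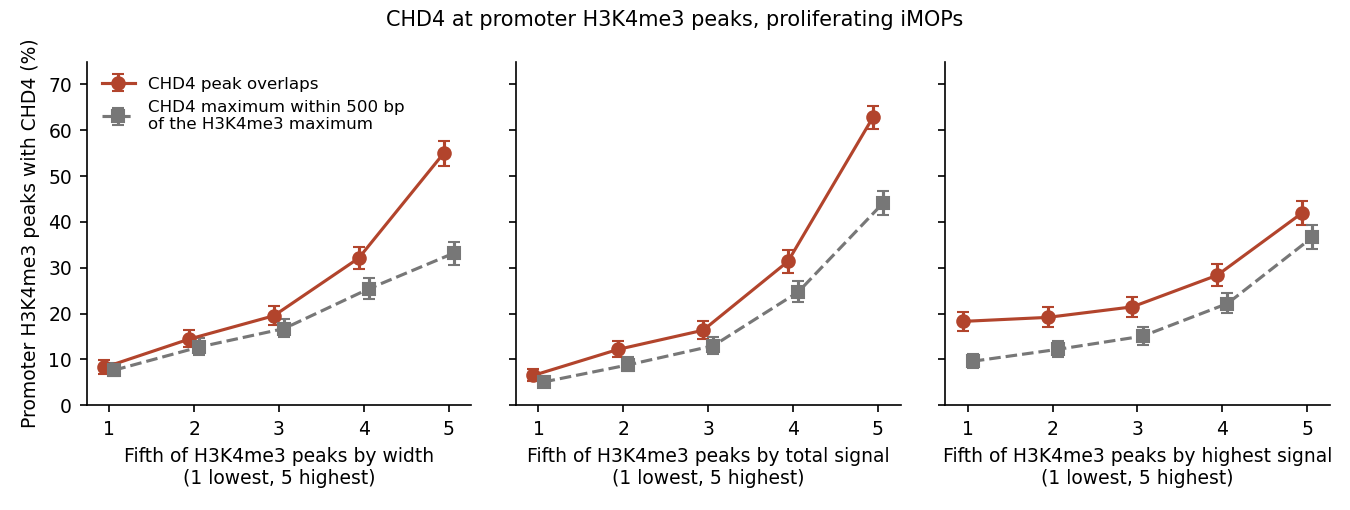
Share of promoter H3K4me3 peaks with CHD4 (%, with exact 95% intervals) in 5 groups of peaks by width, total signal or highest signal; circles show any overlap with a CHD4 peak and squares a CHD4 maximum within 500 bp of the H3K4me3 maximum. Overlap rises with width, with 8.26% in the narrowest and 55.0% in the widest group, and the fixed 500 bp distance gives 7.68% and 33.2%.

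A wide peak has more room to be overlapped, so a distance of fixed size was also used. A CHD4 maximum lay within 500 bp of the H3K4me3 maximum at 7.68% (6.34 to 9.21) of the narrowest and 33.2% (30.7 to 35.7) of the widest group, with 12.7%, 16.7% and 25.4% between them. The rise with width was therefore smaller with the fixed distance but ran the same way. Ranked by total signal, which grows with width, the share of overlapping peaks was 6.53%, 12.2%, 16.4%, 31.4% and 62.8% from the weakest to the strongest group. Ranked by highest signal it was 18.3%, 19.2%, 21.5%, 28.4% and 42.0%. Height alone separated the lower groups little: the intervals of the first pair of groups overlapped (16.3 to 20.4 and 17.1 to 21.3).

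Width and height were each associated with CHD4 when the other was held in a range. Among H3K4me3 peaks up to 3250 bp, the CHD4 share was 5.11% at low, 8.29% at middle and 20.2% at high signal. Among peaks of 4250 bp or more it was 37.7%, 45.5% and 56.8%. By overlap, low wide peaks carried CHD4 more often than high narrow ones (intervals 34.2 to 41.2 and 17.1 to 23.5). With a CHD4 maximum within 500 bp the shares were 19.7% (16.9 to 22.7) and 18.9% (16.0 to 22.2), so this order was not seen with the fixed distance. Sox2, a progenitor transcription factor, belongs to the wide peaks of middle height, with an H3K4me3 peak of 26300 bp whose highest signal ranked at the 39.8th percentile.

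Seen from the CHD4 list, stronger peaks overlapped H3K4me3 less often. H3K4me3 was present at 2074 of 4919 CHD4 peaks (42.2%), and by total CHD4 signal the share was 48.2%, 47.3%, 42.1%, 38.2% and 35.1% from the weakest to the strongest group. The share of CHD4 peaks within 1 kb of a start moved alongside, at 49.1% in the weakest group and 31.1% in the strongest. CHD4 peaks at starts overlapped H3K4me3 in 1775 of 2010 cases (88.3%), and CHD4 peaks elsewhere in 299 of 2909 (10.3%). The CHD4 peaks without H3K4me3 lay a median of 64250 bp from the nearest H3K4me3 peak, and 6.61% of them lay within 5 kb of such a peak. The 511 H3K4me3 peaks away from starts overlapped CHD4 in 236 cases (46.2%).

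At shared promoters CHD4 usually sat inside the H3K4me3 peak. Of the 1800 pairs, each taken as the H3K4me3 peak and its strongest overlapping CHD4 peak, CHD4 lay wholly inside in 1104 (61.3%), covered the whole H3K4me3 peak in 118 (6.56%) and overlapped in part in 578 (32.1%). CHD4 covered a median of 68.1% of the H3K4me3 peak. The CHD4 maximum fell inside the H3K4me3 peak in 97.9% of pairs, and 98.0% of the H3K4me3 peaks met a single CHD4 peak. Lfng and Ddit4 were exceptions in extent. At Lfng, a glycosyltransferase that modifies Notch receptors, CHD4 covered 19550 bp and H3K4me3 7100 bp. At Ddit4, a stress-induced inhibitor of mTORC1, CHD4 covered 17750 bp and H3K4me3 7900 bp.

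The maxima of the 2 antibodies lay close together at most promoters. Their median distance was 150 bp (quartiles 50 and 550), where positions are known to steps of 50 bp. They fell at the same position in 17.8% of pairs, within 250 bp in 59.8%, within 500 bp in 73.3% and more than 2 kb apart in 10.1%. By H3K4me3 width the median was 150 bp in each of the 4 narrower groups and 300 bp in the widest. More than 2 kb lay between the maxima in 0.870% of pairs in the narrowest group and 21.3% in the widest. Peaks of the narrowest group are at most 2850 bp wide and nearly all CHD4 maxima lie inside the H3K4me3 peak, so such distances have little room there. With CHD4 ranked by total signal, the median was 150 bp in the weakest group and 437.5 bp in the strongest.

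**Figure D2:**
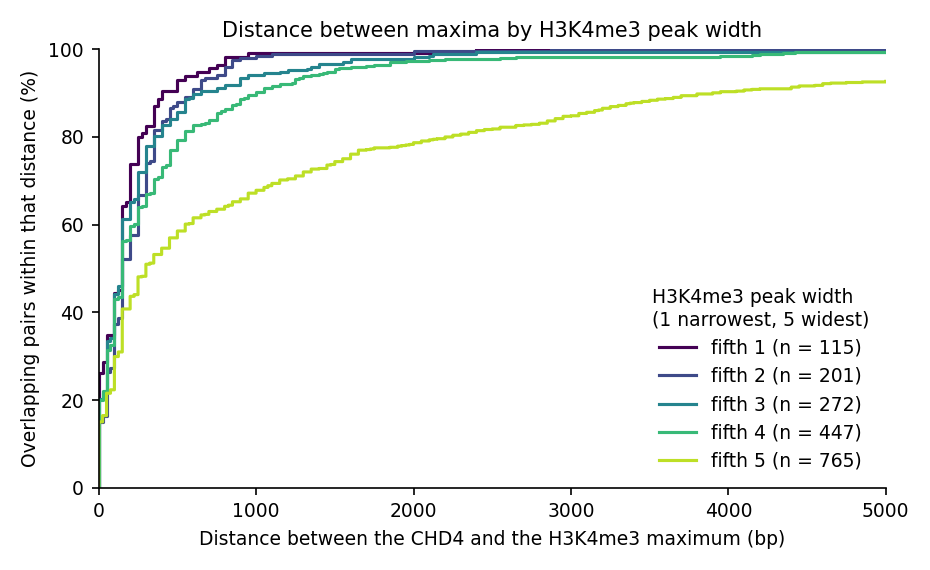
Cumulative share of overlapping pairs (%) whose CHD4 and H3K4me3 maxima lie within the distance on the x axis (bp), for 5 groups by H3K4me3 peak width. The 4 narrower groups share a median of 150 bp, but 93.0%, 88.1%, 85.7% and 79.2% of their pairs lie within 500 bp, from narrow to wide. In the widest group 58.6% lie within 500 bp and 21.3% more than 2 kb apart.

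The largest distances were at developmental regulators as well as at a ribosomal protein gene. At Hes5, a Notch target that represses neuronal differentiation and shares its peaks with Pank4, the maxima lay 16050 bp apart, with CHD4 over 20050 bp and H3K4me3 over 10050 bp. They were 11750 bp apart at Rps10, a ribosomal protein gene that shares its H3K4me3 peak with Nudt3, a phosphohydrolase gene with no CHD4 at its own start. At Mideas, a subunit of a histone deacetylase complex, they were 11650 bp apart. At Tle2 and Tle5, genes of the Groucho family, they were 11350 bp apart. Sox2 had a CHD4 peak of 2850 bp at its start, whose maximum lay 1500 bp from that of H3K4me3, and a stronger CHD4 peak under the same H3K4me3 peak, 11300 bp away. At the opposite end, the maxima coincided at Zbtb7b, a zinc finger transcription factor, at Flnc, an actin crosslinker, at Midn, a factor in protein degradation, and at the histone gene groups around H2ac7 and H2ac20. Wide peaks therefore included both coincident and distant maxima.

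The 10 pairs of peaks with the highest mean rank for both antibodies included those at Dll1 (4850 bp between maxima), Lfng (2400 bp) and Hes7, an oscillating repressor next to Aloxe3 (1950 bp). The others were Ddr1 (5800 bp), Midn with its neighbours Atp5d and Cbarp (0 bp), Ddit4 (50 bp), Bahcc1, a chromatin reader (1600 bp), Gnai2, a G protein subunit (1350 bp), Zbtb7b (0 bp) and Actg1, the cytoplasmic gamma actin (4650 bp). All had CHD4 in neurons too except Bahcc1. The highest-ranked promoters thus did not share a fixed spacing of the maxima.

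Along the direction of transcription CHD4 lay upstream of H3K4me3 more often than downstream. For 1218 promoter pairs whose starts were all on 1 strand, the CHD4 maximum minus the H3K4me3 maximum had a median of -100 bp, with CHD4 upstream in 742 (60.9%, 58.1 to 63.7), downstream in 264 (21.7%) and at the same position in 212 (17.4%). CHD4 was upstream more often than downstream in each of the 5 width groups, at 66.7%, 74.8%, 64.1%, 58.0% and 55.7% from narrow to wide. Relative to the start, the CHD4 maximum had a median of -109 bp and lay upstream at 66.2%. The H3K4me3 maximum of the same promoters had a median of 75 bp and lay downstream at 64.3%. At the 3522 promoters without CHD4, H3K4me3 had its maximum at a median of 104 bp and lay downstream at 74.1% (72.6 to 75.5). Taken separately, the maximum of CHD4 thus stood before the start, and that of H3K4me3 behind it, in most but not all cases. Each maximum was measured to its own nearest start, and how often both held at the same promoter was not counted. Among the 1218 pairs, CHD4 lay downstream of the start at 33.7% and H3K4me3 upstream at 35.6%.

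**Figure D3:**
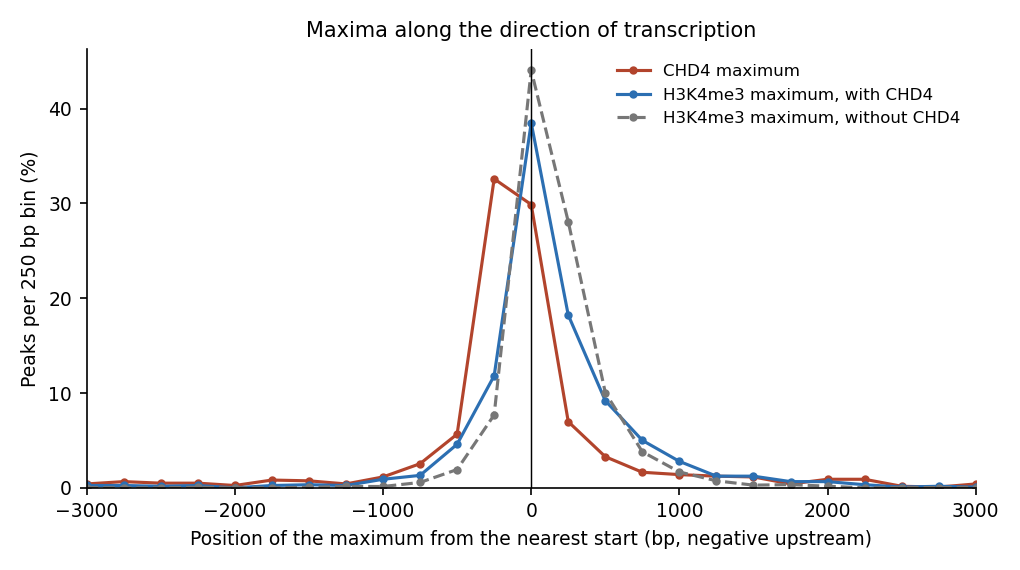
Position of the maximum relative to the nearest transcription start (bp, negative upstream, bins of 250 bp) for CHD4, for H3K4me3 at the same 1218 promoters and for H3K4me3 at 3522 promoters without CHD4, as percent of peaks. CHD4 is centred upstream (median -109 bp) and H3K4me3 downstream (75 bp with CHD4 and 104 bp without).

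Promoters with starts on both strands within 1 kb carried CHD4 in a like share as those with starts on 1 strand when all widths were pooled, at 25.1% (22.2 to 28.2) of 828 and 25.7% (24.5 to 27.0) of 4740, although their median width was greater (4000 bp against 3600 bp). Within each width group the share was lower with starts on both strands: 4.30% and 8.44% in the narrowest, then 9.72% and 16.3%, 17.1% and 21.0%, 26.7% and 32.3%, and 48.9% (42.1 to 55.6) and 56.4% (53.0 to 59.8) in the widest. The intervals overlapped in each group.

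CpG content did not separate promoters with CHD4 from those without it once H3K4me3 was present. In windows of 250 bases before to 50 after the start, for 14731 genes with 1 start, the median CpG count was 24 with CHD4 and H3K4me3, 24 with H3K4me3 alone, 13 with CHD4 alone and 5 with neither. Among genes with H3K4me3, the CHD4 share by CpG count was 24.6%, 22.8%, 25.8%, 24.1% and 22.3% from the poorest to the richest group. Width, by contrast, divided the same genes into shares of 7.85% in the narrowest and 48.3% in the widest group.

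Short sequence motifs did differ in frequency, and the ETS site stood apart. CCGGAAG, the core bound by ETS factors such as GABPA, was found on either strand in 12.4% (10.7 to 14.4) of 1263 promoters with both and in 24.5% (23.1 to 25.8) of 4018 with H3K4me3 alone, against 11.8% of all promoters of that length. Turned round, CHD4 was listed at 13.8% (11.8 to 15.9) of H3K4me3 promoters with this motif and at 26.7% (25.4 to 28.1) of those without it. Their median H3K4me3 widths were 3650 and 3700 bp. Within the 5 width groups, the motif was found in 13.3%, 16.4%, 9.05%, 14.2% and 11.4% of promoters with both and in 25.4%, 22.4%, 24.5%, 26.3% and 23.8% of those with H3K4me3 alone; only in the second group did the intervals overlap. Of the sequences printed above, that of Pik3r2 holds 1 such match, and those of Med22, also with H3K4me3 alone, Ddr1 and Dll1 hold none.

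**Figure D4:**
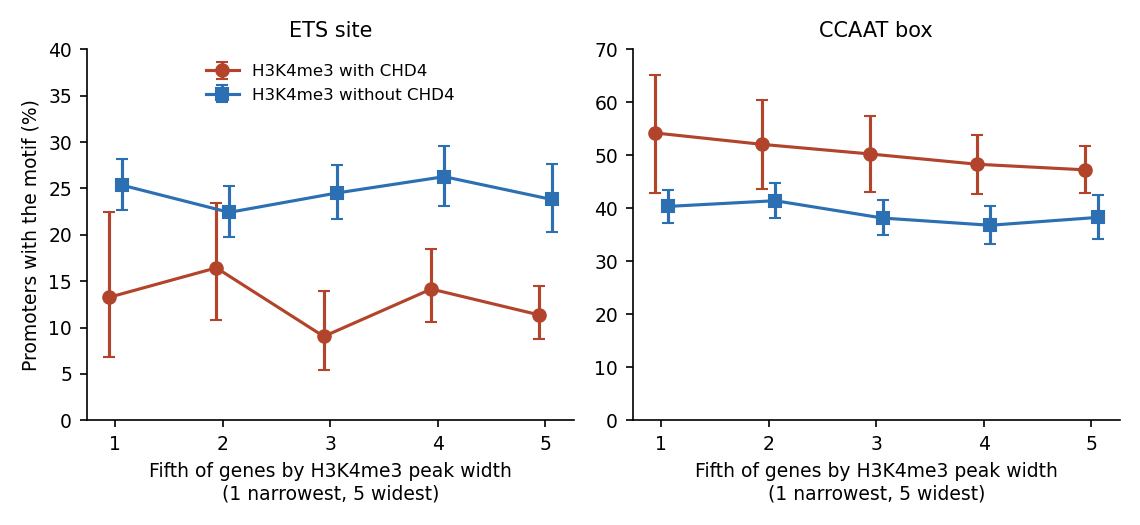
Share of promoters (%, with exact 95% intervals) holding the ETS site CCGGAAG or the CCAAT box, in 5 groups of genes by H3K4me3 peak width, for H3K4me3 with CHD4 (circles) and without CHD4 (squares). The ETS site is less frequent with CHD4 and the CCAAT box more frequent with CHD4 in each width group.

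CCAAT, the box bound by NF-Y, was more frequent with CHD4, at 49.0% (46.2 to 51.8) of promoters with both and 39.2% (37.7 to 40.7) of those with H3K4me3 alone (39.6% of all). By width, its intervals overlapped in the narrowest and the second group only. The GC box GGGCGG, bound by Sp and Klf factors, was present in 77.0% and 71.1% (45.3% of all), with overlapping intervals in every width group. TATAAA was found in 7.21% (5.84 to 8.77) and 5.05% (4.40 to 5.78) (14.3% of all), and in 22.3% (15.0 to 31.2) of the 112 promoters with CHD4 alone, beside 19.1% of those with neither. By width TATAAA was found in 3.61%, 4.79%, 5.03%, 5.23% and 10.6% with both and in 5.34%, 4.95%, 4.20%, 5.20% and 5.86% with H3K4me3 alone, with overlapping intervals in every group, narrowly so in the widest (8.05 to 13.6 and 4.04 to 8.17). The palindromic NRF1 site was found in 1.35% (0.786 to 2.15) and 2.96% (2.46 to 3.53) (1.29% of all). By width its intervals overlapped in every group, and in the third group it was more frequent with CHD4 (4.52% and 3.15%). For the E-boxes CACGTG (7.72% of all) and CAGCTG (15.0%), the AP-1 site TGACTCA (4.53%), the cyclic AMP response element TGACGTCA (2.29%) and the RBPJ site GTGGGAA (5.95%), the intervals with and without CHD4 overlapped. A match is a description of letters in the window and not a binding site, and these letters were searched on both strands.

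The kinds of genes with CHD4 at an H3K4me3 promoter were read against the 25.7% among all genes with H3K4me3. In the Notch pathway, which keeps progenitors from differentiating, 12 of 13 genes with H3K4me3 had CHD4 (92.3%, 64.0 to 99.8). They were the receptors Notch1 and Notch2, the ligands Dll1 and Jag1, the modifiers Lfng and Mfng, the transcription factor Rbpj, and the targets Hes1, Hes5, Hes6, Hey1 and Nrarp, while Rfng had H3K4me3 of 5800 bp without CHD4. All 13 of these H3K4me3 peaks were 5000 bp wide or more, a class in which 944 of 1870 genes (50.5%) had CHD4. At Hes1 CHD4 covered 15100 bp and H3K4me3 5850 bp, with maxima 3250 bp apart. In the Wnt pathway 10 of 16 genes with H3K4me3 had CHD4, among them the receptors Fzd2, Fzd7, Fzd8 and Fzd9 and the feedback gene Axin2, whereas the receptors Fzd1 and Fzd3, Apc, a scaffold of the destruction complex, and Lgr5, a receptor for R-spondins, had H3K4me3 alone.

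**Figure D5:**
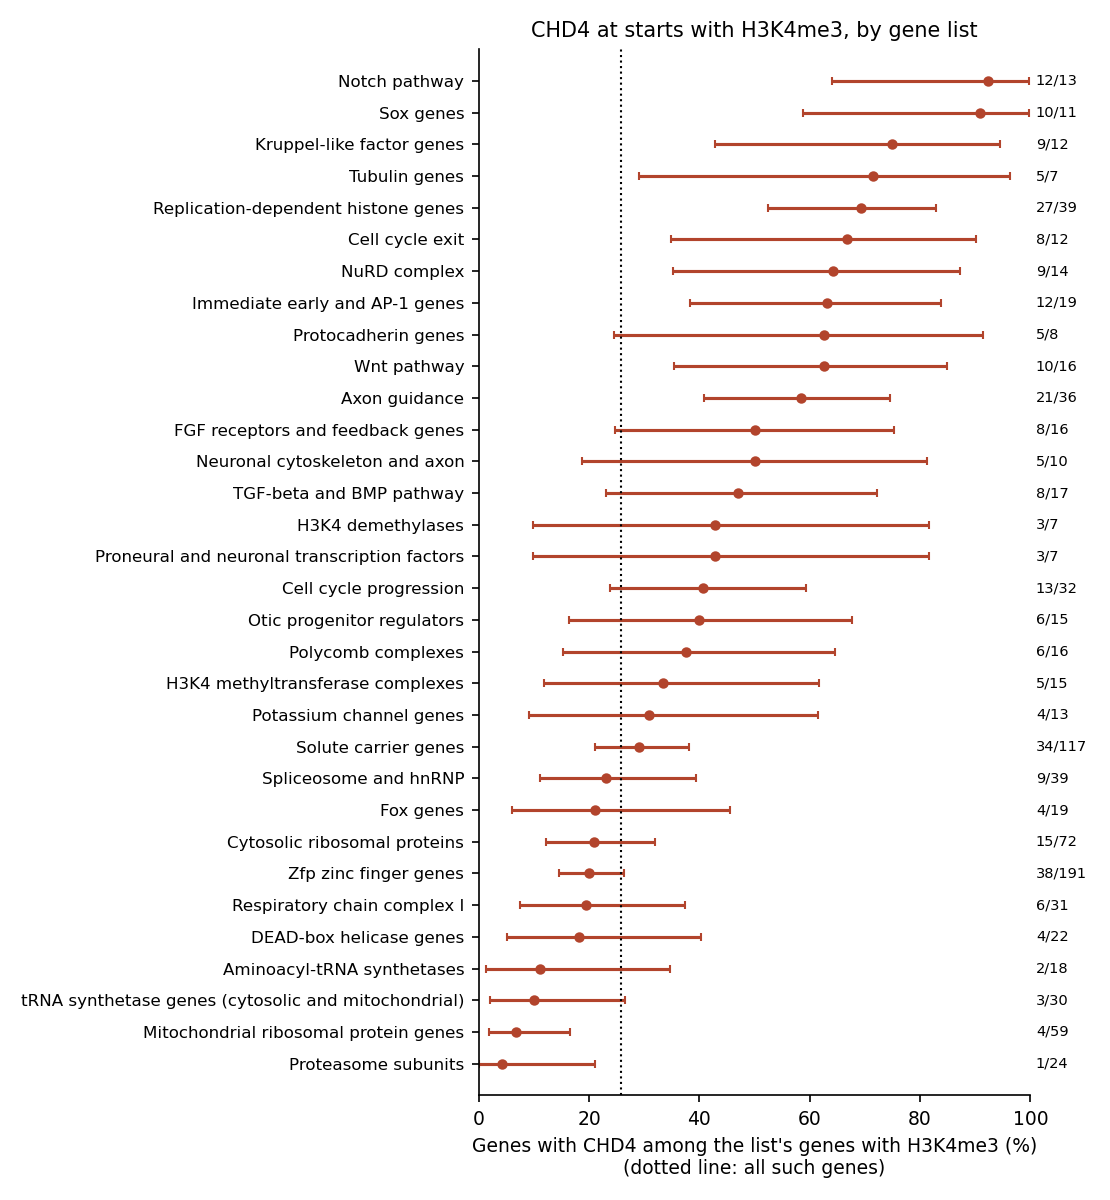
Share of genes with CHD4 (%, with exact 95% intervals) among the genes with H3K4me3 at the start in each list or gene family with at least 7 such genes; counts stand at the right and the dotted line marks all genes with H3K4me3 (25.7%). Notch pathway (12 of 13) and Sox genes (10 of 11) lie at the top, and mitochondrial ribosomal protein (4 of 59) and proteasome (1 of 24) genes at the bottom.

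In the FGF list, which concerns the factor the cells were grown in, 8 of 16 genes with H3K4me3 had CHD4 (50%, 24.7 to 75.3). CHD4 was listed at feedback inhibitors and targets of the pathway: the phosphatases Dusp4 and Dusp6, whose maxima coincided, the ETS factors Etv1 and Etv5, Spry4, and Spred1, Spred2 and Spred3. The receptors Fgfr1 (4200 bp), Fgfr2 (3700 bp) and Fgfr3 (4500 bp) had H3K4me3 alone, as did Spry1, Spry2, Etv4 and the adaptors Frs2 and Frs3. By width, CHD4 was at 6 of 7 FGF list genes with H3K4me3 of 5000 bp or more and at 2 of 9 under it. Among all genes with H3K4me3 these shares were 50.5% and 18.3%. In the TGF-beta and BMP list CHD4 was present at 8 of 17, including the inhibitory Smad6 and Smad7 and the signal-carrying Smad3, while Smad1, Smad2 and Smad4 had H3K4me3 alone. The intervals of both lists (for TGF-beta and BMP 23.0 to 72.2) include 25.7%.

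Transcription factor families differed in the same comparison. Of the Sox genes with H3K4me3, 10 of 11 had CHD4: Sox1, Sox2, Sox3, Sox4, Sox6, Sox8, Sox9, Sox11, Sox12 and Sox21, with Sox13 the exception. Among Kruppel-like factors 9 of 12 had CHD4, and among immediate early and AP-1 genes 12 of 19, including Fos, Junb and Fosl2, whose maxima coincided, and Jun (950 bp apart). Egr1, an immediate early zinc finger gene, had an H3K4me3 peak of 5900 bp without CHD4. Zinc finger genes named Zfp had CHD4 at 38 of 191 (19.9%, 14.5 to 26.3) and Fox genes at 4 of 19 (21.1%, 6.05 to 45.6). Both intervals include 25.7%. By width, CHD4 was at 48% of Zfp genes with H3K4me3 of 5000 bp or more and at 15.7% under it. Among all genes with H3K4me3 these shares were 50.5% and 18.3%. Of the otic progenitor regulators, Id1, Id2, Id3, Myc, Sox2 and Sox9 had CHD4 with H3K4me3, while 9 others, among them Eya1, Tbx2 and Otx1, had H3K4me3 alone. That share, 6 of 15 (40%, 16.3 to 67.7), has an interval that also includes 25.7%.

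Genes of cell cycle exit had CHD4 at 8 of 12 (66.7%, 34.9 to 90.1) and genes of cell cycle progression at 13 of 32 (40.6%, 23.7 to 59.4), with intervals that overlap. With H3K4me3 of 5000 bp or more, 6 of 6 exit and 4 of 7 progression genes had CHD4. Under that width, 2 of 6 exit and 9 of 25 progression genes had it. The exit genes with CHD4 were Cdkn1a, Cdkn1b, Cdkn2d, Btg1, Btg2, Gadd45a, Gadd45g and Trp53, which slow division or respond to DNA damage. At Cdkn1b CHD4 covered 4300 bp of the H3K4me3 peak with maxima 150 bp apart. Progression genes with CHD4 included E2f1, E2f2, E2f3, Pcna and Cdk4, and those without it Ccnd1 (8200 bp of H3K4me3), Plk1, Aurka and Cdc20. At E2f2, a transcription factor of S phase entry, the maxima lay 7850 bp apart, and at E2f1 50 bp apart. The CHD4 peaks at Pcna, Ccna2 and Mcm6 ranked low in the CHD4 list, at the 4.2nd, 4.5th and 5.5th percentiles of total signal.

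Axon guidance genes had CHD4 at 21 of 36 with H3K4me3 (58.3%, 40.8 to 74.5). Among receptors, CHD4 was listed at Epha4, Epha7, Ephb3, Ephb4, Nrp1, Nrp2, Plxna1, Plxna2 and Plxnc1. Among ligands it was listed at the ephrins Efna4, Efna5, Efnb1 and Efnb2, at the semaphorins Sema4b, Sema4c, Sema5b, Sema6a and Sema6c, at the netrins Ntn1 and Ntn3, and at Draxin, a netrin antagonist. Ephb2, Dcc, Robo1, Robo2 and Plxnb2 had H3K4me3 alone, and Slit1 and Sema6b CHD4 alone. At Epha4 CHD4 covered 4000 bp and H3K4me3 4250 bp with maxima 50 bp apart. At Sema4b they covered 10850 and 14900 bp with maxima 5900 bp apart. Within peaks of 5000 bp or more, 14 of 20 axon guidance genes had CHD4 (70%, 45.7 to 88.1), an interval that includes the 50.5% of all genes in that class. Under that width 7 of 16 had it (43.8%, 19.8 to 70.1), an interval above the 18.3% of all genes in that class.

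Of 26 proneural and neuronal transcription factors 19 had neither peak, as had 18 of 28 neuronal cytoskeleton and axon genes, beside 61.4% of all protein-coding genes. The other 7 transcription factors had H3K4me3, and Insm1, Neurog2 and Scrt1 had CHD4 as well. Their CHD4 and H3K4me3 maxima lay 1500, 1550 and 300 bp apart. Neurog1, a proneural factor of the otic lineage, had neither. Among the cytoskeletal genes Tubb3, Stmn1, Map2, Map1b and Ncam1 had both. At Tubb3, the neuronal beta tubulin, CHD4 covered 10100 bp and H3K4me3 6400 bp with maxima 150 bp apart. Of the ion channel and synapse genes, Stx1a and Slc17a7 had CHD4 alone while Vamp2, a synaptic vesicle protein, and Dlg4, a postsynaptic scaffold, had both.

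Several families of housekeeping genes had H3K4me3 without CHD4. Proteasome subunit genes had CHD4 at 1 of 24 (4.17%, 0.105 to 21.1), which was Psmb3, a gene that shares its 11250 bp peak with the Polycomb gene Pcgf2. Mitochondrial ribosomal protein genes had CHD4 at 4 of 59 (6.78%, 1.88 to 16.5): Mrpl34, Mrpl40, Mrpl41 and Mrps18b. Genes of aminoacyl-tRNA synthetases had it at 2 of 18 (11.1%, 1.38 to 34.7), Sars and Vars, with an interval that includes 25.7%. The intervals of the proteasome and mitochondrial ribosomal protein genes lay below 25.7%, but their H3K4me3 peaks were also narrower, with medians of 3400 and 3350 bp beside 3750 bp for all genes with H3K4me3. Among peaks under 5000 bp, CHD4 was at 0 of 20 proteasome genes (0 to 16.8) and 1 of 50 mitochondrial ribosomal protein genes (2%, 0.0506 to 10.6), beside 18.3% of all genes in that class. Respiratory chain complex I (6 of 31), the spliceosome and hnRNP genes (9 of 39) and cytosolic ribosomal protein genes (15 of 72, 20.8%) also had intervals that include 25.7%.

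Cytosolic ribosomal protein genes held some of the widest H3K4me3 peaks, yet many lacked CHD4. Among 43 of them with H3K4me3 of 5000 bp or more, 13 had CHD4 (30.2%, 17.2 to 46.1), against 50.5% (48.2 to 52.8) of all genes in that class. Rpl7a (21400 bp), Rpl35 (13500 bp), Rpl13a (12900 bp) and Rpl8 (12250 bp) had no CHD4 at the start, while Rps10 (17600 bp) and Rpl38 (11350 bp) had it. In the same class CHD4 was present at 7 of 15 spliceosome genes, 9 of 10 Sox genes and 8 of 9 immediate early genes. Width alone thus did not give the same share in every kind of gene, though the numbers per list are small.

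Genes of chromatin complexes included CHD4's own partners. Of the NuRD genes with H3K4me3, 9 of 14 had CHD4: Chd4, Chd3, Hdac1, Hdac2, Mbd3, Rbbp4, Gatad2a, Gatad2b and Cdk2ap1. Mta1, Mta2, Mta3, Mbd2 and Rbbp7 had H3K4me3 alone, and Chd5, a neuronal paralogue, had neither. At Chd4 the CHD4 peak was 3000 bp and the H3K4me3 peak 6400 bp wide, with maxima 1150 bp apart. Genes of the H3K4 methyltransferase complexes had CHD4 at 5 of 15 (33.3%, 11.8 to 61.6), namely Kmt2a, Kmt2b, Kmt2c, Kdm6a and Paxip1. Of 7 peaks of at least 5000 bp in that list, 1 had CHD4 (14.3%, 0.361 to 57.9), that of Kmt2a (5750 bp), an interval that includes the 50.5% of all genes in that class. Setd1b (13750 bp) and Men1 (10100 bp) had none. Polycomb genes had CHD4 at 6 of 16, among them Ezh2 and Ring1.

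The widest H3K4me3 peaks without CHD4 at the start were of several kinds. Pik3r2 (21650 bp), Abt1 (18500 bp), an activator of basal transcription, Nudt3 (17600 bp) and Dalrd3 with Wdr6 (17050 bp) had CHD4 elsewhere under the same peak, away from their own starts. This was so for 93 of the 6096 genes with H3K4me3 alone (1.53%). No CHD4 peak touched the H3K4me3 peak over the Surfeit cluster (21400 bp), which holds Surf1, Surf2, Surf6, Med22 and Rpl7a. The same held for the peak shared by Shmt2, a mitochondrial enzyme of serine metabolism, Ndufa4l2 and Stac3 (16400 bp). The transcription factor genes Zeb2 (15750 bp), Sall3 (15600 bp) and Sp8 (15500 bp) also had wide H3K4me3 peaks without CHD4. At Zeb2 and Sp8 neither CHD4 in neurons nor p300 was listed at the start.

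CHD4 without H3K4me3 was found at 247 genes under 209 CHD4 peaks. The strongest, of 31500 bp, covered Gpr153 and Hes3, a bHLH repressor of the Notch target family. Others were Pxn, a focal adhesion protein (6950 bp), Akna, an AT-hook protein (11300 bp), Tspan18, a tetraspanin (16250 bp), Dbx1, a homeobox gene of interneuron progenitors (10450 bp), and Nfic, a transcription factor of the nuclear factor I family (9350 bp). Of 63 replication-dependent histone genes, 21 (33.3%) were among the 247, under 15 CHD4 peaks on chromosome 13, beside 1.13% of all protein-coding genes. A further 27 histone genes had both antibodies under 10 CHD4 peaks, 12 had H3K4me3 alone and 3 had neither. H2bc14 (9100 bp of CHD4) had H3K4me3 at its start in neurons. Histone genes are near copies of each other, so reads can be split between them. Of 69 protocadherin genes, 21 (30.4%) had CHD4 alone. Of these, 20 are gamma protocadherin genes placed by both ends under 1 CHD4 peak of 3450 bp at their shared end. That peak need not be at a start. In all, 94 of the 247 genes were placed by both ends, among them Hes3, Pxn and Tspan18. The CHD4 peak of such a gene need not be at its start.

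The promoters with CHD4 differed from the others in further lists of the study. A p300 peak, from the acetyltransferase antibody, was present at 62.5% (60.2 to 64.7) of promoter H3K4me3 peaks with CHD4 and at 1.90% (1.54 to 2.31) of those without. Neuron CHD4 peaks were present at 63.2% and 3.24%. H3K4me3 was listed in neurons at 84.0% (82.2 to 85.7) of promoter peaks with CHD4 and at 72.7% (71.5 to 73.9) of those without. Within the 5 width groups these shares were 54.8% and 52.2%, 73.6% and 69.9%, 81.3% and 79.0%, 87.9% and 85.3%, and 89.8% and 89.6%, and the intervals overlapped in every group. Between peaks of like width the difference was thus smaller than the pooled difference, with the share higher with CHD4 in each group. In neurons the share of promoter H3K4me3 peaks with CHD4 was 21.4% (20.4 to 22.6), and by width it was 7.20%, 11.8%, 17.1%, 23.3% and 47.8%. The median distance between maxima there was 550 bp. With 1 library per state the difference between the states was not tested.

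Markers of the otic lineage and of other cell types were read from the same lists, beside the 37.5% of all protein-coding genes with H3K4me3. The counts per cell type are small and do not identify a cell type. Of 6 otic progenitor markers, 3 had H3K4me3 at the start, Sox2 and Eya1 among them, while Pax2, Pax8 and Gata3 had none. Among markers of other cell types H3K4me3 was present at 2 of 5 neuron markers (Map2 and Tubb3), 1 of 6 hair cell markers (Myo6), 2 of 7 glial markers (Erbb3 and Pmp22), 2 of 7 mesenchyme markers (Vim and Pdgfra) and 1 of 5 blood and endothelial markers (Cd68). It was absent from the list at Alb, Apoa1 and Ttr, the 3 defining liver markers, while Apoa2, a further liver gene, had both antibodies at its start. All of the defining markers without H3K4me3, for example Atoh1, Col1a1 and Ptprc, had no CHD4 at the start either. All the 1110 olfactory receptor genes had neither antibody. By the approximation of 3 divided by the number of genes, not the exact interval, the upper limit of the CHD4 share is 0.27%.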

How the data were processed

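CUT&Tag was done on proliferating iMOPs and iMOP-derived neurons with antibodies to CHD4, H3K4me3, p300 and IgG, 1 library each. The deposited peak lists give for each peak its position, its summed signal, its highest signal and the interval of highest signal. Bowtie2, deepTools, SEACR and mm10 are named in the submitters' processing notes, without versions. The scaling of the signal, the threshold, the use of IgG and what the word merged in the deposited lists pools are unstated in what was used here. For this reason the authors' signal was used only to rank peaks within a list. Depth is unknown.

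Peaks were joined by an overlap of at least 1 bp and to genes within 1 kb of a RefSeq start (GRCm38.p6), or of both annotated ends for 4395 genes without one. The maximum is the middle of the interval of highest signal. Groups by width or signal were 5 of equal number. Python 3.11.15, numpy 2.4.6, pandas 2.3.3, SciPy 1.17.1 and matplotlib 3.10.9 were used, and the scripts were tested on simulated data. Alternatives were the overlap, the promoter window, the ranking measure, trimmed lists, the point taken as the maximum and the definition of a start.

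The comparison, the 26 gene lists and the 17 families by symbol were chosen with earlier results of these data known. Named genes were the 10 strongest with both, the 10 widest with H3K4me3 alone, the 10 strongest with CHD4 alone, the 5 farthest and 5 closest maxima among the widest peaks, up to 4 per combination of each list by total signal, and Chd4, Sox2, Epha4, Ephb2, Tubb3, Neurog1, Cdkn1b, Hes1, Dll1 and Myc. Further members of lists, and all members of families, were named after their values were seen. Some members of lists are not reported here.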

Additional observations from a re-analysis of the deposited data

Results flagged for a closer look

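A signal outside the main comparison was found on sequences not placed on a chromosome: 31 CHD4 peaks lay on 11 such sequences, against 1 H3K4me3 peak, and 1 of these CHD4 peaks overlapped H3K4me3. No control library was used for these values.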

How the results depend on the processing

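Of 98 values from 11 alternatives for 13 results, 72 stayed within the counting interval or 1.5 times the reported value and 26 did not. In each alternative that gave values by width, the share with CHD4 was higher in the widest than in the narrowest peaks. With the stronger 50% of each list, CHD4 was at 18.2% of promoter H3K4me3 peaks, at 5.63% of the narrowest and 46.2% of the widest, and at 4.36% of the weakest and 47.2% of the strongest. A maximum within 500 bp was found at 4.78% of the narrowest and 23.5% of the widest, H3K4me3 at 30.1% of CHD4 peaks, a median distance of 250 bp with 64.0% within 500 bp, 772 genes with both and 3741 with H3K4me3 alone. With the H3K4me3 list trimmed to the length of the CHD4 list, the CHD4 shares were 34.5% of all, 16.8% and 62.0% by width and 14.2% and 70.5% by total signal. The fixed distance gave 15.1% in the narrowest, H3K4me3 was at 36.5% of CHD4 peaks, and 3857 genes had H3K4me3 alone and 460 CHD4 alone. These alternatives hold fewer peaks by construction. Ranked by highest signal, the weakest and strongest groups had 18.3% and 42.0%. Between closest edges of the intervals of highest signal, the median distance was 100 bp and 75.7% lay within 500 bp. With only genes that have a listed start, an alternative chosen after seeing the data, 153 genes had CHD4 alone, which leaves out the 94 placed by both ends. With either end of every gene, also chosen after seeing the data, 2229 genes had both, of which 1969 were shared with the reported 2104. The alternatives on overlap could not apply to the combinations of genes or to the fixed distance. No paired analysis was possible because each antibody and state has 1 library.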

Other observations

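The share of promoter H3K4me3 peaks with CHD4 varied by chromosome. It was 40.1% (35.3 to 45.1) of 399 on chromosome 3 and 34.6% (30.9 to 38.5) of 630 on chromosome 11, and it ranged between 18.5% and 28.6% on the other autosomes. On the X chromosome 10 of 104 had CHD4 (9.62%, 4.71 to 17.0). On chromosome 3 the share by H3K4me3 width was 11.8%, 27.7%, 27.3%, 54.3% and 69.7% from narrow to wide. The p300 list gave 24.6% on chromosome 3, 26.5% on chromosome 11 and 5.77% on X. In neurons CHD4 was at 36.6%, 25.1% and 9.68% of promoter H3K4me3 peaks on these chromosomes.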
